A study of Mus musculus with 4 samples.

Results

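A set of 8 genes of the bone morphogenetic protein (BMP) pathway was followed in ATAC-seq peak lists of the mouse limb bud: the ligand genes Bmp2, Bmp4 and Bmp7, the receptor genes Bmpr1a and Bmpr1b, the antagonist gene Nog, and the homeobox genes Msx1 and Msx2. Their regions were taken by position, as every peak within 100 kb of a gene's mm10 start site. For these 8 of 21532 protein-coding genes, the E10.5 list gave 168 of its 99356 regions and the E11.5 list 60 of its 37413. All embryos were wild type, and each library joined forelimb and hindlimb cells, so the limb types cannot be told apart. By their titles the 4 libraries are 2 replicates of each stage, while the protocol writes E10 for the younger one. Dissected limbs were made into a cell suspension and fixed, with no sort named, so ectoderm, mesenchyme, vessels, nerve and blood can all contribute. The study concerns En1, and in the limb BMP signalling acts upstream of that gene. A stage has 1 peak list, whose name gives both of its replicates, so the values carry no replicate spread and no difference between stages could be tested. Depth per library is unknown.

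BMPs are secreted ligands of the TGF-beta superfamily. They bring type I receptors, such as those encoded by Bmpr1a and Bmpr1b, together with type II receptors, and the activated type I receptor phosphorylates SMAD proteins that enter the nucleus and regulate target genes. Noggin, the product of Nog, binds the ligands outside the cell and keeps them from the receptors. In the limb bud, BMPs act in ventral ectoderm, in the apical ridge, in digit and interdigit formation and in cartilage condensation, and the Msx genes encode homeodomain repressors that respond to BMP signals. ATAC-seq marks DNA that the Tn5 transposase can reach, which includes active promoters and enhancers but gives no measure of transcription.

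The label of the tissue was checked through promoters, where a promoter region is a region within 1 kb of a start site. Of 10 limb mesenchyme markers, 10 (E10.5) and 8 (E11.5) had one, and of 10 genes of other organs 2 and 0 did. Over all protein-coding genes the shares were 66.2% and 59.9%. The limb mesenchyme markers without one at E11.5 were Tbx5 and Pitx1. For surface ectoderm the numbers were 9 and 6 of 10, for endothelium 4 and 2 of 7, for blood 2 and 3 of 7, for muscle precursors 5 and 2 of 5, for nerve and glia 6 and 5 of 6, and for cartilage 3 and 3 of 4. At E10.5 all muscle precursor and all nerve and glia genes had one too, so presence alone does not single out limb mesenchyme. Presence also rose with the number of CG dinucleotides before a start site, as given below. The groups of markers were not matched for that number. The part of these cell types in the results below was not tested.

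Each of the 8 genes had a promoter region in both lists. Among all protein-coding genes, 66.2% had one at E10.5, 59.9% at E11.5 and 59.5% in both lists. In a bulk sample, a region open in fewer cells and a region less open in each cell cannot be told apart. The authors' signal value, which sums over the width of a peak, was used for levels and ranks within each list. Rank 1 is the highest signal, and ranks in lists of unequal length show no change between them. How the signal was scaled is not given in the sources used here, so signals of the 2 lists are set side by side with no fold between stages.

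**Figure D1:**
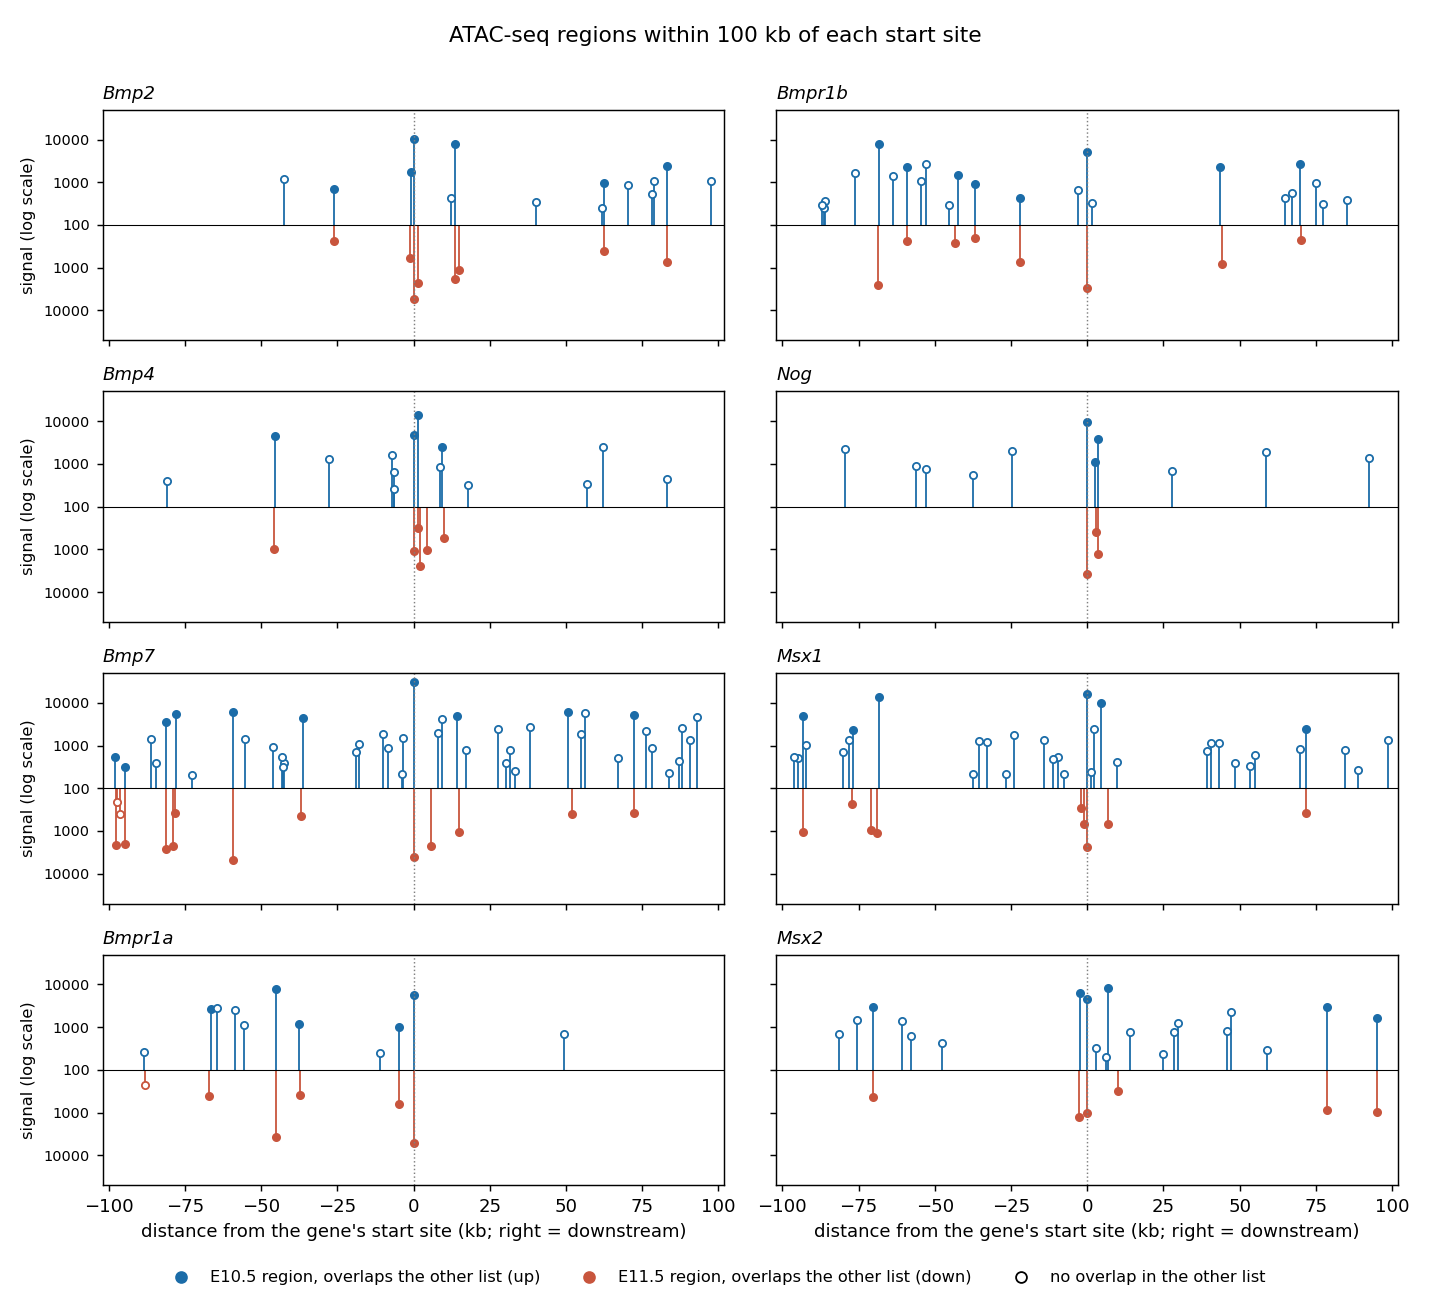
Regions within 100 kb of the 8 start sites, by distance from the start site to the nearest base of the region (kb, downstream to the right) and signal (log scale). Stems up are E10.5 regions and stems down E11.5 regions, and open circles mark regions with no overlap in the other list. Each gene has filled circles at its start site in both directions, and 3 E11.5 circles are open.

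Among the ligand genes, Bmp2 runs from 133552159 to 133562896 of chromosome 2 (plus strand). Its start site was spanned by an E10.5 region at chr2:133551873-133555172 with a signal of 10549, rank 1601. The E11.5 list held 2 regions in the same place. The E11.5 region over the start site, chr2:133551887-133553594, had a signal of 5468 and rank 2236, and the other, inside the gene at chr2:133553727-133555143, had a signal of 2327. The E10.5 list also held a promoter region just upstream, at chr2:133550027-133551441, with a signal of 1771. It lay 0.7 kb from the start site, and its E11.5 partner at chr2:133550222-133550977 (signal 603) lay 1.2 kb away and so just outside the promoter limit.

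Bmp4 is on the minus strand of chromosome 14 at 46383525 to 46390669. Its promoter region was not its strongest: chr14:46389478-46391348 had an E10.5 signal of 4809, while a region inside the gene at chr14:46384859-46389200 had 13828, rank 608. At E11.5 the promoter region, chr14:46390054-46390896, had a signal of 1099 and rank 14994. The single broad region inside the gene at E10.5 overlapped 3 E11.5 regions, of which chr14:46386828-46388460 was the strongest at 2520, followed by chr14:46385377-46386236 at 1015. In both lists, then, the highest signal near Bmp4 lay inside the gene and over the long noncoding RNA gene Gm15222.

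Bmp7 is on the minus strand of chromosome 2 at 172868012 to 172940321 and had the widest E10.5 promoter region of the 8 genes. It ran over 8399 bp, chr2:172933134-172941532, with a signal of 30526. That is rank 26 of the list. Of the promoter regions of other genes at that stage, 99.9% were narrower and 99.9% had a lower signal. Per base pair its signal was 3.63, a level above 68.3% of promoter regions. At E11.5 the same stretch held 2 separate regions, one over the start site (chr2:172938743-172940912, signal 4054) and one 5.6 kb downstream inside the gene (chr2:172933531-172934674, signal 2197). The E10.5 region thus stands higher among promoters by width and total signal than by signal per base pair.

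The receptor genes differed in how their promoters compared with those of other genes. Bmpr1a, on the minus strand of chromosome 14 at 34411061 to 34503336, encodes a type I receptor that is broadly expressed. Its promoter region had a signal of 5711 at E10.5 (chr14:34501693-34503561) and 5138 at E11.5 (chr14:34501874-34503487). The first value is above 60.9% of promoter regions in its list and the second above 79.5%. Bmpr1b, a type I receptor gene known from cartilage condensations, lies on the minus strand of chromosome 3 at 141837135 to 142169585. The region over its outer start site had a signal of 5103 at E10.5 (chr3:142168299-142169724) and 3026 at E11.5 (chr3:142168434-142169684), above 54.3% and 49.1% of promoter regions. By total signal Bmpr1b thus lay close to the median promoter in both lists, and Bmpr1a above it. Per base pair the order at E10.5 was the reverse, with Bmpr1b above 66.5% of promoter regions and Bmpr1a above 49.7%. At E11.5 these shares were 48.9% and 75%.

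The RefSeq promoter table gives 3 further start sites inside Bmpr1b, 187.3, 238.0 and 238.2 kb downstream of the outer one. The last 2 are 168 bp apart and fell in the same region, chr3:141931223-141931818 at E10.5 with a signal of 1935. The E11.5 region there, chr3:141931273-141931809, had a signal of 476. The start at 187.3 kb fell in an E10.5 region (chr3:141981749-141982459, signal 1145), and the nearest E11.5 region was 37.5 kb away. This was the only start among those checked for the 8 genes that had a region in the E10.5 list alone.

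Nog is a gene of a single coding exon on the minus strand of chromosome 11 at 89300638 to 89302559. The region over it had a signal of 9398 at E10.5, rank 2309 (chr11:89301114-89303935), and of 3763 at E11.5, rank 5095 (chr11:89301372-89303925). These are above 87.8% and 62.0% of promoter regions, and each region covers most of the gene. Per base pair the order was different, with the Nog promoter above 58.8% (E10.5) and 17.3% (E11.5) of promoter regions.

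The Msx genes, targets of BMP signalling, had promoter regions of unlike size. Msx1, on the minus strand of chromosome 5 at 37820491 to 37824585, had an E10.5 region of 6214 bp (chr5:37823370-37829583) with a signal of 16489, rank 314, above 98.3% of promoter regions. It overlapped 3 E11.5 regions, and the one over the start site (chr5:37823418-37824980) had a signal of 2317, above 36.5%. Per base pair the Msx1 promoter stood above 36.6% (E10.5) and 17.6% (E11.5) of promoter regions. Msx2, on the minus strand of chromosome 13 at 53466881 to 53472780, had an E10.5 promoter region of 1779 bp (chr13:53471915-53473693) with a signal of 4483, above 46.7%. At E11.5 (chr13:53472193-53473018) it was 1008, above 13.3% of promoter regions. Together with Bmp4, which stood above 14.7%, the Msx2 promoter was in the lowest 25% of E11.5 promoter regions.

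**Figure D2:**
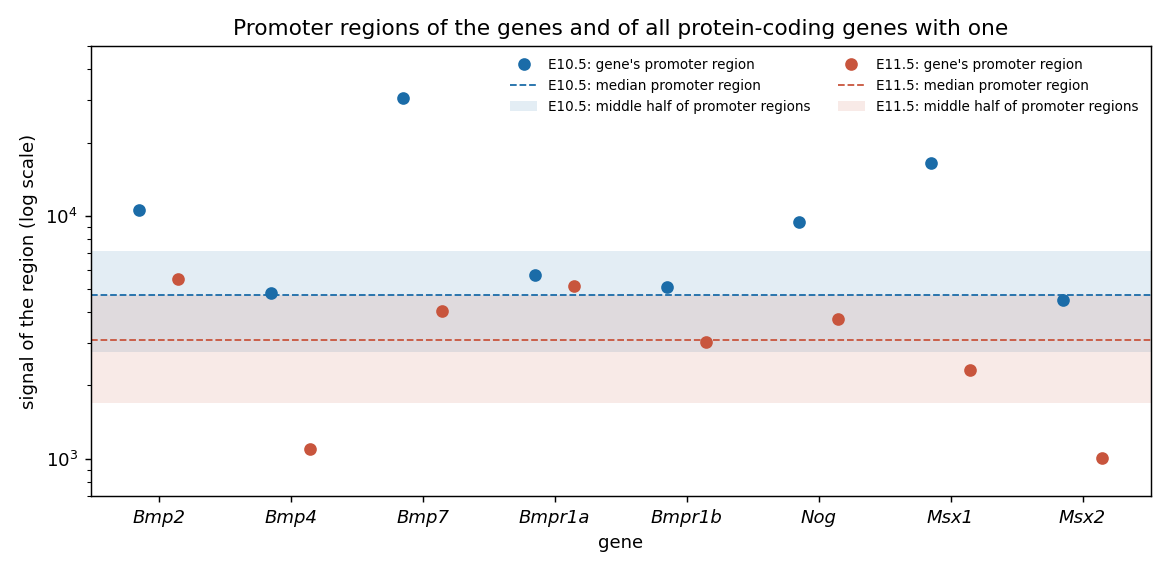
Signal (log scale) of the strongest promoter region of each of the 8 genes in the E10.5 and E11.5 lists. Dashed lines and bands give the median and the middle 50% of the promoter regions of all protein-coding genes with one, and the E11.5 points of Bmp4 (1099) and Msx2 (1008) lie under their band while the E10.5 points of Bmp7 (30526), Msx1 (16489), Bmp2 (10549) and Nog (9398) lie above theirs.

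Over the 8 genes the median promoter signal was 7554 at E10.5, against 4738 for the 14264 protein-coding genes with a promoter region. At E11.5 it was 3395, against 3070 for 12903 genes. This signal sums over width, and per base pair the picture differed. The median over the 8 genes was then 3.13 at E10.5, against 3.06 for all promoter regions, and 1.68 at E11.5, against 2.45, so that at E11.5 their median lay below that of all promoter regions by this measure and above it by total signal. Bmp2, Bmp7, Nog and Msx1 stood above the upper quartile of 7163 at E10.5, and Bmp2 and Bmpr1a did so at E11.5, where that quartile was 4718.

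The sequences before some of the start sites were read, among them that of the Bmpr1b start with a region in the E10.5 list alone. The RefSeq promoter table (build GRCm38.p6, the coordinates of mm10) held 5 of the 8 genes with 7 start sites. The 250 bases before 4 of these starts are printed 5′ to 3′ on the gene's strand, which is the minus strand in each case, and capitals mark the dinucleotide CG. Those of Bmp4 (chr14:46390670-46390919), Msx1 (chr5:37824586-37824835) and Msx2 (chr13:53472781-53473030) overlapped a region in both lists. That of the Bmpr1b start at 187.3 kb (chr3:141982265-141982514) overlapped a region at E10.5 only.
Bmp4: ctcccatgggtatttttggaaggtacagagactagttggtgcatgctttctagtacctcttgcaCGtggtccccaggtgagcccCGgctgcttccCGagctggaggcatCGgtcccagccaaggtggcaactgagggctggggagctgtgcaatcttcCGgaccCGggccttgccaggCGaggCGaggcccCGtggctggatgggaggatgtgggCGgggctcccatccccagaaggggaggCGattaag
Msx1: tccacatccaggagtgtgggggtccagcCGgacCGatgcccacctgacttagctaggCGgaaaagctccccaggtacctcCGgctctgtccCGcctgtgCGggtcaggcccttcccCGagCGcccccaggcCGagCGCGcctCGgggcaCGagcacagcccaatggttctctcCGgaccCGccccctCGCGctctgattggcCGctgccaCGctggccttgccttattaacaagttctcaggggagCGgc
Msx2: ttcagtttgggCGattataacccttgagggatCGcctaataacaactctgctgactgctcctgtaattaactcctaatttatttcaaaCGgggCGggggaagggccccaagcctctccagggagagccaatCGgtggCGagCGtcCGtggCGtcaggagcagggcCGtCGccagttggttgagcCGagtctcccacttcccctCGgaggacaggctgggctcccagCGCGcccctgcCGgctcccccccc
Bmpr1b: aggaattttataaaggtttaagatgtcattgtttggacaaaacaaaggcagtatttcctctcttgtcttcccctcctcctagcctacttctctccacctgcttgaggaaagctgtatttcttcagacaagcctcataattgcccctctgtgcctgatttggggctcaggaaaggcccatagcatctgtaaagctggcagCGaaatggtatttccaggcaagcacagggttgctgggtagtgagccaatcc

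The Bmp4 sequence has 11 CG dinucleotides, the Msx1 sequence 20, the Msx2 sequence 16 and the Bmpr1b sequence 1. Across 21262 promoters of the table the median was 10. The printed Bmpr1b sequence has fewer than most, since 6.61% of promoters have fewer still. Bmpr1a, whose sequence is not shown, has 36, more than 96.7% of promoters, and the other Bmpr1b starts of the table, near 238 kb, have 5 each. The outer Bmpr1b start used above is not in the table, so its CG number is not known here. The Bmpr1a start in the table lies 790 bp inside the gene from the one used above. Of all promoters with 0 to 4 CG, 16.1% overlapped an E10.5 region and 9.15% an E11.5 region. With 5 to 9 CG, the group of the Bmpr1b starts near 238 kb, the shares were 66% and 54.0%. With 10 to 19 CG the shares were 96.0% and 91.9%, and with 20 to 56 CG they were 99.0% and 96.7%. The promoters of Bmp4, Msx1 and Msx2 fall in these last groups, and the Bmpr1b start at 187.3 kb falls in the first.

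Short motifs were searched on both strands of the same 250 bases, and a match is a description of letters only. Positions count from the start site to the first base of the motif. The GC box, GGGCGG, is in 42.6% of all promoters. It starts 38 bases before the Bmp4 start, 72 before the Msx1 start (on the opposite strand) and 160 before the Msx2 start. The CCAAT box, written by its letters, is in 35.4%. Msx1 has it at 91 bases and, on the opposite strand, at 54, Msx2 has it at 124, and the Bmpr1b sequence has it at 7. The homeodomain core TAATTA, in 4.30% of promoters, starts 187 bases before the Msx2 start, and the form TAATTG, in 6.28%, is in the Bmpr1b sequence. The letters GTCTG of the SMAD-binding element, in 40.8%, were found on the opposite strand at 128 bases in the Bmpr1b sequence. Another GTCTG lies 245 bases before the Bmpr1b start at 238 kb, whose sequence is not printed. The GC-rich SMAD site GGCGCC, in 12.3%, was found 198 bases before the Bmpr1a start of the table, also not printed. That start has the GC box at 37 and 56 bases and, on the opposite strand, at 145 and 177. It also has the CCAAT box on the opposite strand at 99 bases. Bmp4 has the E-box CACGTG at 188 bases, which 6.63% of promoters hold. The TATA box TATAAA, in 11.6%, was found at 242 bases and, overlapping it on the opposite strand, at 244 in the Bmpr1b sequence. Other pairs of these motifs did not overlap in the printed sequences.

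With promoter regions counted in, the 8 genes had from 11 to 42 regions within 100 kb at E10.5, with a median of 17. Protein-coding genes, counted in the same way, had a median of 10 (quartiles 4 and 17). At E11.5 the 8 genes had from 3 to 14, with a median of 7, against 5 (quartiles 2 and 8). In the E10.5 list all 8 were above the median of genes, and in the E11.5 list 7 were, with Nog below it. Bmp7 had 42 and 14 regions, and 99.5% and 92.0% of genes had fewer. Msx1 had 33 and 9, with 97.8% and 77.9% of genes below it. Bmpr1b had 23 and 8, and Msx2 20 and 6. Bmp2 had 14 and 8, Bmp4 14 and 6, Bmpr1a 11 and 6, and Nog 11 and 3. Bmp7 and Msx1 had the most regions in both lists, and Nog had the fewest, level with Bmpr1a at E10.5.

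**Figure D3:**
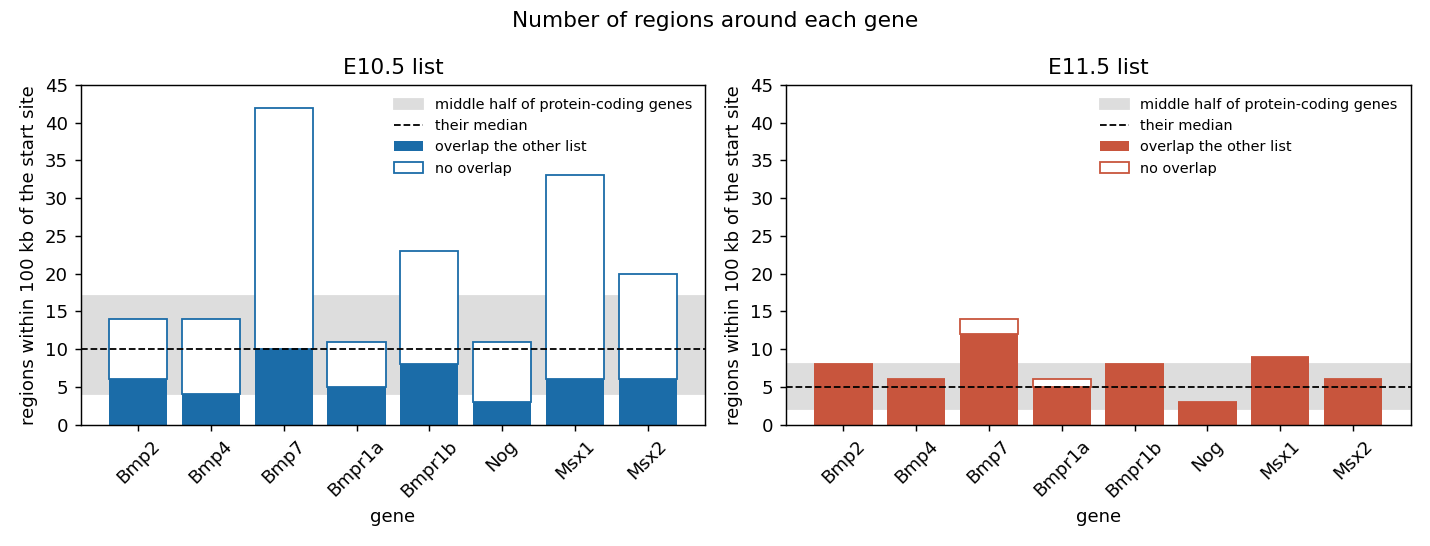
Number of regions within 100 kb of each start site in the E10.5 list (left) and the E11.5 list (right), filled where the region overlaps the other list. The grey band and dashed line give the middle 50% and the median of 21532 protein-coding genes, and Bmp7 is the highest bar in both panels (42 and 14).

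A window of 100 kb can hold regions of neighbouring genes. The nearest protein-coding start site was that of the gene itself for 134 of the 168 E10.5 regions and 44 of the 60 E11.5 regions. For Bmp2, Bmp4, Bmpr1b and Nog this held for each region of both lists. For Bmp7 it held for 27 of 42 and 5 of 14, because Spo11, Rae1 and Rbm38 start within 100 kb upstream. For Bmpr1a it held for 3 of 11 and 2 of 6, with Ldb3 and 9230112D13Rik nearby. Regions nearest to another start site are assigned to the genes here by position alone.

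Downstream of Bmp2, the strongest distal region was chr2:133565787-133567971, 13.6 kb from the start site and past the end of the gene, with an E10.5 signal of 7705, rank 4051. It overlapped 2 E11.5 regions, chr2:133565868-133566877 (signal 1837) and chr2:133566994-133567666 (signal 1156). The next, 83.2 kb downstream at chr2:133635339-133636029, had a signal of 2362, and its E11.5 partner at chr2:133635405-133635835 had 742. On the upstream side, chr2:133508890-133509591 at 42.6 kb (signal 1181) was the strongest E10.5 region without E11.5 overlap. Of the 14 E10.5 regions 10 lay downstream and 3 upstream, besides the one over the start site.

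For Bmp4, the strongest distal region outside the gene was chr14:46436090-46437366, 45.4 kb upstream between genes, with a signal of 4587. Its E11.5 partner, chr14:46436420-46437222, had 991. A region 9.5 kb downstream over the long noncoding RNA gene Gm15217, chr14:46379895-46381184, had 2494, and its E11.5 partner at chr14:46380312-46380726 had 537. A region at 62.3 kb downstream (chr14:46327429-46328396, signal 2466) had no E11.5 overlap.

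Bmp7 held 15 E10.5 regions over its own gene body and 4 E11.5 regions. The strongest E10.5 distal region nearest to Bmp7, chr2:172885430-172889657, lay 50.7 kb into the gene with a signal of 6050 and overlapped an E11.5 region of 397 at chr2:172887879-172888459. Beside it, chr2:172880849-172884114 at 56.2 kb had a signal of 5861 and no E11.5 overlap. Of distal E10.5 regions in the same, highest decile of signal, 82.8% overlapped the E11.5 list. Other Bmp7 regions of that decile without overlap were chr2:172844998-172847168 past the gene end (93.2 kb, signal 4749) and chr2:172928479-172931016 within it (9.3 kb, signal 4209). These signals sum over width, and by signal per base pair the regions ranked far lower. Those at 50.7 and 56.2 kb had 1.43 and 1.79 per base pair, ranks 51985 and 37860 on that measure. Those at 93.2 and 9.3 kb had 2.19 and 1.66, ranks 26651 and 42666. Over the 8 genes, 14 of 17 distal regions of the highest decile overlapped the E11.5 list, which is near the 82.8% of the list. The 3 without overlap all lay around Bmp7, the gene with the most regions. The strongest region of the window apart from the promoter, in both lists, was the promoter of Rae1, 59.1 kb upstream. It had a signal of 6055 at E10.5 (chr2:172999382-173001032) and of 4850 at E11.5 (chr2:172999477-173000975), where it exceeded the Bmp7 promoter. The next E11.5 regions were those at the promoter of Rbm38, chr2:173021556-173022690 (2654), and beside it, chr2:173019290-173020228 (2210).

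Upstream of Bmp7, 2 regions near Rbm38 went the other way. The E11.5 region chr2:173034828-173036041, 94.5 kb upstream, had a signal of 2016 and overlapped an E10.5 region of 317. The E11.5 region chr2:173037888-173038615 at 97.6 kb had 2142 and overlapped one of 542. Between them lay 2 E11.5 regions with no E10.5 overlap, chr2:173036497-173036950 (signal 394) and chr2:173037519-173037774 (signal 211). The nearest protein-coding start site was that of Rbm38, 12.9 to 16.2 kb away. Of the 57 overlapping pairs of regions around the 8 genes, the E10.5 signal was higher in 54, against 92.1% of 34604 pairs over both lists. The third exception was a pair 22.0 kb upstream of Bmpr1b, with an E11.5 signal of 730 (chr3:142191614-142191928) and an E10.5 signal of 430.

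Around Bmpr1a, the strongest distal region lay 45 kb upstream within Ldb3, chr14:34548314-34549867, with an E10.5 signal of 8015. Its signal per base pair of 5.16 gave it rank 866 on that measure. The E11.5 region there, chr14:34548370-34549744, had 3770, rank 5080. Regions also within Ldb3 but farther from Bmpr1a, at 64.4 kb (chr14:34567690-34568903, signal 2749, no E11.5 overlap) and 66.4 kb (chr14:34569721-34570815, signal 2595), followed at E10.5. The latter had an E11.5 partner of 405 at chr14:34570386-34570619. The remaining E11.5 region without E10.5 overlap, chr14:34591385-34591604 in Opn4, was weak, with a signal of 221. A region 4.8 kb upstream of the start site (chr14:34508127-34508701, signal 635) was the only E11.5 distal region with Bmpr1a as the nearest gene.

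Around Bmpr1b, chr3:142237766-142239536 between genes, 68.2 kb upstream, had an E10.5 signal of 7715, above that of the promoter region (5103). At E11.5 the order was reversed, with 2554 for the distal region (chr3:142238151-142239280) and 3026 for the promoter. A region 69.8 kb into the gene, chr3:142098894-142099781, had 2742 at E10.5, and its E11.5 partner at chr3:142099070-142099422 had 224. Another at 52.8 kb upstream (chr3:142222416-142223729, signal 2687) had no E11.5 overlap. At E11.5 the region 44.1 kb into the gene, chr3:142124282-142125450, had 831.

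Around Nog, E11.5 regions lay only at the gene and just past its end. The region 3.7 kb downstream of the start site, chr11:89297507-89298890, had an E10.5 signal of 3745, and its E11.5 partner chr11:89298248-89298859 had 1302. A neighbouring region at 2.9 kb, chr11:89299209-89299661, had 388 at E11.5. The 5 E10.5 regions on the upstream side had no E11.5 overlap, in a list where 23.5% of distal regions have one, among them chr11:89381879-89383098 at 79.3 kb (signal 2247) and chr11:89327204-89328139 at 24.6 kb (signal 1965). As a share of the summed signal of the window, the promoter made up 38.2% at E10.5, over 11.4 kb of regions with a mean signal per base pair of 2.15. At E11.5 it made up 69.0%, over 3.62 kb with a mean of 1.51.

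Around Msx1, chr5:37892809-37897353, 68.2 kb upstream over the long noncoding RNA gene Gm20052, had an E10.5 signal of 13958, rank 586. It overlapped 2 E11.5 regions of 1131 (chr5:37893454-37894550) and 955 (chr5:37895399-37896011). Past the end of the gene, chr5:37816628-37820091 had 9673 at E10.5, and its E11.5 partner at chr5:37816922-37817645 had 683. A region 93.1 kb upstream, chr5:37917730-37919019, had 4935 at E10.5, with an E11.5 partner of 1078 at chr5:37917807-37918614. Inside Msx1 and its antisense gene Msx1os, chr5:37820668-37822262 (signal 2456) had no E11.5 overlap. ATAC-seq carries no strand, so a region over Msx1 and Msx1os belongs to both.

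Around Msx2, regions on both sides of the promoter exceeded it in total signal at E10.5. At E10.5, chr13:53461588-53465812, past the gene end and 7.0 kb from the start site, had a signal of 8305. The region 2.3 kb upstream, chr13:53475044-53477241, had 6318, and the promoter had 4483. Per base pair the upstream region had 2.87, the promoter 2.52 and the region past the gene end, 4225 bp wide, 1.97. At E11.5 the upstream region (chr13:53475502-53476425, signal 1279) was again above the promoter (1008), while the region past the gene end (chr13:53462311-53462771) had 305. Msx2 regions farther away were also found in both lists. The region 78.5 kb downstream over Gm2762 had 2965 at E10.5 (chr13:53393457-53394230) and 874 at E11.5 (chr13:53393465-53394193). The region over the promoter of Sptlc1, 95 kb downstream, had 1607 and, at chr13:53377083-53377754, 948. The region 70.2 kb upstream had 2912 and 430. The strongest E10.5 region without E11.5 overlap was chr13:53424533-53425767, 47.0 kb downstream, with a signal of 2252.

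Overlap between the lists was counted from 1 shared bp. Of the 168 E10.5 regions, 48 overlapped the E11.5 list, which is 28.6% (95% Wilson interval 22.3 to 35.8%), against 32.3% of the whole list. Of the 60 E11.5 regions, 57 overlapped the E10.5 list, which is 95% (86.3 to 98.3%), against 91.8%. Both shares are near the background of their list. With promoter regions of any gene left aside, 34 of 153 distal E10.5 regions overlapped (22.2%, 16.4 to 29.4%), against 23.5% of distal regions in the list. The same count at E11.5 was 45 of 48 (93.8%, 83.2 to 97.9%), against 88.2%. Intervals here cover counting error only, and neighbouring regions are not independent.

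By gene, the number of E10.5 regions with E11.5 overlap was 6 of 14 for Bmp2, 4 of 14 for Bmp4, 10 of 42 for Bmp7, 5 of 11 for Bmpr1a and 8 of 23 for Bmpr1b. It was 3 of 11 for Nog, 6 of 33 for Msx1 and 6 of 20 for Msx2. The Msx1 share, 18.2% (8.61 to 34.4%), was the lowest and the Bmpr1a share, 45.5% (21.3 to 72.0%), the highest, and their intervals overlap.

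**Figure D4:**
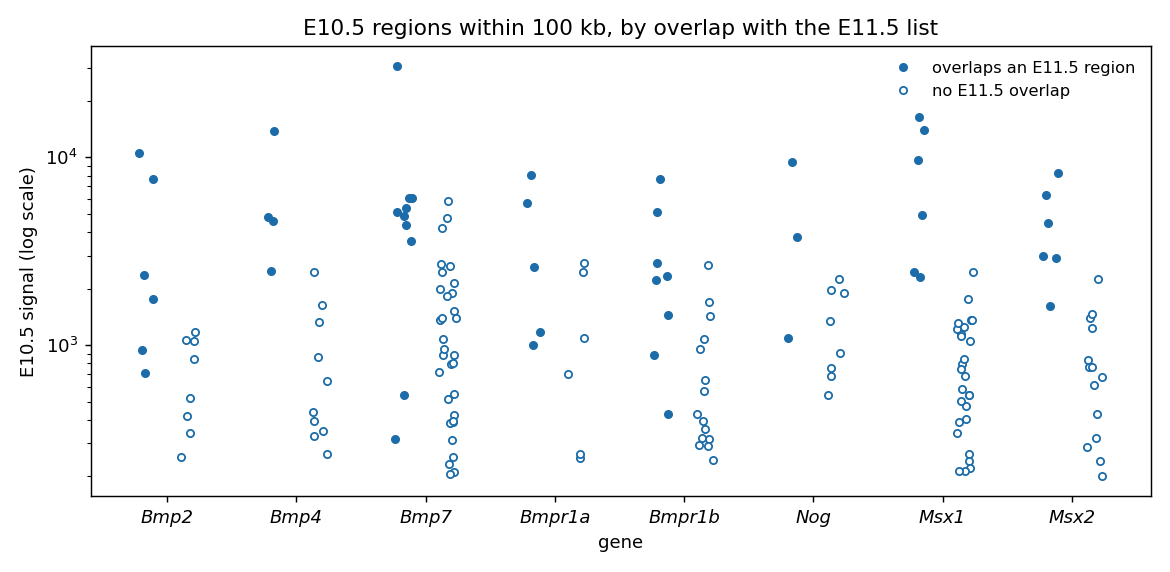
Signal (log scale) of the E10.5 regions within 100 kb of each start site, filled where the region overlaps an E11.5 region and open where it does not. Filled points sit higher, with a median of 4064 against 756 for open points, and the highest open points are those of Bmp7, up to 5861.

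E10.5 regions with overlap had a median signal of 4064, and those without had 756. In the top 25% of the E10.5 list by signal, 36 of 49 regions around the 8 genes overlapped (73.5%, 59.7 to 83.8%), against 83.3% of the list. In the next 25% it was 8 of 49 (16.3%, 8.51 to 29.0%), against 31.1%. In the third and the fourth 25% it was 3 of 35 and 1 of 35, against 10.3% and 4.44%. In each of these groups the share around the 8 genes was below that of the list. The list's share lay inside the first interval and above the second, and no test was run. These groups mix promoter and distal regions, and in the list 86.0% of promoter regions overlapped but 23.5% of distal ones. Among distal regions alone, 14 of 17 around the 8 genes in the highest decile of signal overlapped, against 82.8% in the list. In the next decile it was 10 of 25, against 52.6%.

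Shared regions were mostly narrower at E11.5. The 57 pairs come from 48 E10.5 regions, because a broad E10.5 region that overlaps several E11.5 regions is counted with each. In 55 of the pairs the E10.5 region was the wider, against 88.3% of all pairs. Summits, the positions of highest signal as deposited, lay a median of 72 bp apart, against 27 bp in all pairs, and 31 of 57 were within 100 bp (54.4%, against 76.4%). Over the 41 pairs in which neither region overlapped a second one, the median was 39 bp, against 21 bp in 29429 such pairs of the lists, and 27 summits were within 100 bp (65.9%, against 83.0%). The E10.5 region was the wider in 39 of these, and its signal was the higher in 38. Of the regions closest to the 100 kb limit, an E10.5 region of Msx1 at 98.8 kb (signal 1354) was counted and one of Bmp4 at 100.1 kb (signal 493) was not. At E11.5 these were a Bmp7 region at 97.6 kb (2142) and a Bmpr1b region at 105.4 kb (825).

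The other genes of the pathway were read at their promoters. Of 45 genes, 41 had a promoter region in the E10.5 list, where 66.2% of all protein-coding genes have one, and 37 in the E11.5 list, where 59.9% do. Each of the 37 also had one at E10.5. Of all protein-coding genes, 14264 had one in the longer E10.5 list, 12903 in the E11.5 list and 12820 in both. A promoter region in the E10.5 list alone thus also occurs among other genes, while one in the E11.5 list alone is rare. Whether the pathway genes differ from this background was not tested. All 6 SMAD genes and all 5 target genes, the Id genes among them, had one in both lists. Of 11 further ligand genes, 7 (E10.5) and 6 (E11.5) had one. Gdf5, a gene of joint formation, had one at E10.5 only (signal 4858). Bmp8b, Bmp10 (known from the heart), Bmp15 (known from the oocyte) and Gdf2 (known from the liver) had none in either list. Of 5 further receptor genes, Acvrl1, known from endothelium, had one at E10.5 only (signal 2315) and the others had one in both lists. Of 18 antagonists and modulators, all 18 had one in the E10.5 list and 16 in the E11.5 list. The exceptions were Sost, an antagonist gene of osteocytes (E10.5 signal 275), and Cer1, known from the early embryo (767).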

How the data were processed

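Chromatin accessibility was measured by ATAC-seq in 4 libraries, 2 per stage, and analysed from 2 narrowPeak lists, 1 per stage, named for both replicates. Per the file headers the build is mm10. The submitters' processing notes name cutadapt, Bowtie2, SAMtools, deepTools and Genrich; their settings, any shift of read ends and the joining of replicates are not given in the sources used here. The deposited signal value (column 7) grows with peak width and starts just above 200 in both lists. The deposited −log10 p was used for alternatives only. The deposited score repeats signal over width, and the q-value column holds -1 throughout, so neither was used. Depth per sample is unknown.

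The 8 genes and the lists were chosen with earlier results of these data known. Regions are peaks on chromosomes 1 to 19, X and Y, 1-based. Peaks of a list lay at least 101 bp apart. A start site is the outer end of a RefSeq gene (GRCm38.p6). Strand came from the RefSeq promoter table for 17491 of 21883 protein-coding genes and by symbol from GENCODE M1 for 4041, including Bmp2, Bmp7 and Nog; 351 without strand were left out. The NCBIM37 sequence was not used. Each gene's promoter regions were named, with the 3 distal regions of highest signal per list, each E11.5 region without overlap and the strongest E10.5 region without overlap; others were named after their values were seen. Intervals are 95% Wilson intervals. Overlap functions were checked on simulated intervals. Python 3.11.15 with pandas 2.3.3, numpy 2.4.6 and scipy 1.17.1 was used.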

Additional observations from a re-analysis of the deposited data

How the results depend on the processing

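No paired analysis was possible because the 2 replicates of a stage share a single peak list, which also leaves no replicate to leave out. Depth is unknown and limits every count of regions. Of 44 values over 11 alternative settings, 26 kept to their criterion (1.5 times for a count, the 95% interval for a share) and 18 moved. All 8 genes had a promoter region in both lists under each setting that was run for it.

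A minimum −log10 p of 5 left 103 regions (E10.5) and 32 (E11.5). With the E10.5 list reduced to the E11.5 number by signal, 73 E10.5 regions were left, with 53.4% of them and 80% of the E11.5 regions shared. Reduced by −log10 p, these were 67, 55.2% and 76.7%. Windows of 50 kb held 88 and 35 regions, with 100% of the latter shared, and windows of 250 kb held 367 and 119. Sharing fell to 13.1% and 36.7% with a reciprocal overlap of 50%, and to 18.5% and 51.7% with summits within 100 bp. Among regions whose nearest protein-coding start site was that of the gene, 100% of E11.5 regions were shared. Fewer or more regions, and less sharing under stricter overlap, follow from the construction of these settings. The shares under these settings are not set beside those of the whole list, so they give no comparison with it. The start sites of the RefSeq promoter table, an alternative chosen after seeing the data, moved no value past its criterion.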

Other observations

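Between 100 and 500 kb from the start sites, regions were counted where the nearest protein-coding start site was still that of the gene, a range chosen after the windows had been seen. Bmp2, whose nearest protein-coding neighbours start 606.1 kb (Fermt1) and 1002.2 kb (Hao1) away, had 25 such E10.5 regions and 10 such E11.5 regions, of which 6 and 7 overlapped the other list. Over all distal regions 23.5% (E10.5) and 88.2% (E11.5) do so. The strongest at E10.5 lay 204.7 kb upstream at chr2:133345596-133347501, with a signal of 5634, and its E11.5 partner at chr2:133345789-133346677 had 1109. An E11.5 region 122.1 kb upstream over the long noncoding RNA gene Gm31851, chr2:133429474-133430077, had a signal of 1483 and no E10.5 overlap. That is higher than any E11.5 region without overlap inside the 100 kb windows, the highest of which had 394.

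Bmp7 had 18 (E10.5) and 4 (E11.5), all downstream. With Spo11 starting 37.1 kb upstream, no region on that side could be counted. The strongest, chr2:172830614-172834180 at 106.1 kb, had an E10.5 signal of 10576, and the strongest E11.5 region there, chr2:172831156-172831526, had 504. Bmp4 had 11 and 3, with chr14:46566724-46568096 at 176.1 kb upstream the strongest at E10.5 (signal 4995) and an E11.5 partner of 367. The strongest at E11.5, chr14:46539834-46540160 at 149.2 kb upstream, had a signal of 597 and no E10.5 overlap. It too was higher than any E11.5 region without overlap inside the 100 kb windows. Bmpr1b had 19 and 5, Msx2 15 and 1, and Nog 11 and 0. Msx1 (nearest neighbour Cytl1, 89.1 kb) and Bmpr1a (9230112D13Rik, 19.5 kb) had none in either list. Their neighbours on the other side start 212.1 kb (Stx18) and 127.8 kb (Mmrn2) away. The spacing of genes thus left little room for such a region at Msx1 and none at Bmpr1a.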
